A study of Mus musculus with 111 samples.

Results

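The genes described here encode RNA polymerase II (Pol II) and the proteins that bring it to promoters. They were chosen by name, as every gene in the deposited comparison table whose symbol begins with Polr2, Med, Taf or Gtf2 followed by a subunit number or letter. This gave 79 of the 36134 genes with counts. By their known roles 13 encode Pol II subunits (among them Polr2m, whose product Gdown1 binds the enzyme), 30 Mediator subunits, 16 subunits of TFIID and their paralogs, 7 other TAFs, and 13 general transcription factors. The other TAFs carry the same name but sit elsewhere: Taf1a, Taf1b, Taf1c and Taf1d encode subunits of the Pol I factor SL1, Taf5l and Taf6l encode subunits of the coactivator SAGA, and Taf15 encodes an RNA-binding protein of the FET family.

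Pol II makes messenger RNA. At a promoter TFIID, made of the TATA-binding protein and its TAFs, marks the start region, TFIIA and TFIIB hold it in place, TFIIF escorts the polymerase, and TFIIE and TFIIH open the DNA. Mediator bridges activators bound at enhancers to this assembly, and its kinase module is a separable regulator. The mouse embryo begins the main wave of its own transcription at the 2-cell stage, and RNA of these genes can be left from the oocyte or newly made, which a level does not separate.

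The libraries hold polyadenylated RNA of single mouse 2-cell embryos of strain B6129F1. Knockdown embryos came from germinal vesicle oocytes injected with a set of 2 siRNAs against Nr5a2 (label C88) at 20 µM each, together with 150 ng per µl of RNA for the marker H2B-rsEGFP. Control embryos came from oocytes injected with the non-targeting set (label NT) at the same dose with RNA for H2B-EGFP, so the marker differs along with the siRNA. All oocytes were kept 5 h in arrest medium, matured for 12 h, fertilized in vitro and cultured in KSOM. Of the 55 knockdown embryos 16 belong to experiment 1, 16 to experiment 2 and 23 to experiment 3, and of the 56 control embryos 24, 7 and 25. The siRNAs act on RNA stored in the oocyte and on RNA made later, while nothing in the labels ties embryos to a mother, and the p-values therefore rest on the spread among embryos as deposited. Nr5a2, the orphan nuclear receptor that was targeted, averaged 48.6 ± 19.8 CPM (counts scaled to the TMM-adjusted library total) in knockdown embryos and 109 ± 48.9 CPM in control embryos (SD), a log2 fold change of -1.17 (SE 0.12, edgeR quasi-likelihood test, adjusted p = 3.71e-12), so the target was lowered and not removed.

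The depth per embryo was 1.97 to 21.4 M estimated counts (medians of 4.54 M in knockdown and 4.98 M in control embryos). Summed genes typical of the 2-cell stage had medians of 3126 CPM in knockdown and 3321 CPM in control embryos. Cumulus and granulosa markers summed to 11.7 to 274 CPM in knockdown embryos (median 104) and 25.4 to 178 CPM in control embryos (median 102), with none of the 13 at 0 in all embryos. Most of this sum was 1 gene, Amhr2, with means of 91.1 CPM in knockdown and 87.7 CPM in control embryos. Tnfaip6 followed at 8.45 and 8.30 CPM. Near 0 were Amh (0.007 and 0.035 CPM), Inha (0.071 and 0.075 CPM) and Fshr (0.045 and 0.077 CPM). The 7 sperm markers summed to at most 7.52 CPM in knockdown and 8.55 CPM in control embryos. The mitochondrial genome took 7.95 ± 2.27% of the counts in knockdown and 7.36 ± 2.00% in control embryos. 5 embryos with much RNA of oocyte genes were set apart after seeing the data: the summed level of 24 oocyte genes was more than 2 times the median of 6425 CPM in 4 knockdown embryos (30026, 17577, 15639 and 12887 CPM) and 1 control embryo (14802 CPM), against at most 12127 CPM in the other embryos, so no gap separates the lowest of the 5 from the rest. Results are given with all embryos, and for some of the tests values without these 5 follow. Levels, sums, spreads and correlations are given with all embryos only.

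The promoters below belong to the 4 members plotted against the 2-cell score further on, 2 that fell and 2 that rose with it. Each sequence is the 250 bases before the start of the gene in RefSeq (GRCm38.p6), 5′ to 3′ on the strand of the gene. Capitals mark the searched motifs, which were CAAGGNCA (the core of the motif bound by Nr5a2), TATAAA (the TATA box), CCAAT (the CCAAT box), CCGGAAG (an ETS motif), AAGATGG (the core of the YY1 motif) and GGGCGG (the GC box), on both strands. Polr2i lies at chr7:30231824-30232073 (plus strand), Taf8 at chr17:47502292-47502541 (minus), Polr2a at chr11:69758634-69758883 (minus) and Gtf2b at chr3:142764997-142765246 (plus). In GENCODE M21 (GRCm38) the genes themselves span chr7:30231948-30233390 for Polr2i (ENSMUSG00000019738), chr17:47483364-47502292 for Taf8 (ENSMUSG00000023980), chr11:69733997-69758637 for Polr2a (ENSMUSG00000005198) and chr3:142765045-142783606 for Gtf2b (ENSMUSG00000028271).
Polr2i: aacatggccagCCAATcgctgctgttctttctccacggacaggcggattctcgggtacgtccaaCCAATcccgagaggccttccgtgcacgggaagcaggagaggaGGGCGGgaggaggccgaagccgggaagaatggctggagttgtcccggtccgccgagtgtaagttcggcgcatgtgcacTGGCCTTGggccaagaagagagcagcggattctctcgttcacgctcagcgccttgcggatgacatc
Taf8: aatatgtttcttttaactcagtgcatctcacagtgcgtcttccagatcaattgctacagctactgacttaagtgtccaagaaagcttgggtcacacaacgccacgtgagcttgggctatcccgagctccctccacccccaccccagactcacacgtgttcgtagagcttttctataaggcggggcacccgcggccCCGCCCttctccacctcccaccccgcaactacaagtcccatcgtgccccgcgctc
Polr2a: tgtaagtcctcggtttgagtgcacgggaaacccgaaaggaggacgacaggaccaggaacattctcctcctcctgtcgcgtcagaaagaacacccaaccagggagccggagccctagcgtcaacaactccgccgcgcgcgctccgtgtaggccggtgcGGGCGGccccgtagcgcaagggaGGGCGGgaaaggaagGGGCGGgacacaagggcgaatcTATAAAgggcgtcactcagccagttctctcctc
Gtf2b: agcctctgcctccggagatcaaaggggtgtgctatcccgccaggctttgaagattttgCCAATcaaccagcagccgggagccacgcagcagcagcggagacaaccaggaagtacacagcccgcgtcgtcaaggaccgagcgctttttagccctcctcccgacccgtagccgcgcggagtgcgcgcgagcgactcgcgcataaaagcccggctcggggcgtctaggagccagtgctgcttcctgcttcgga
The annotations differ in where genes start: the printed bases reach 126 bases into the GENCODE gene for Polr2i, 202 for Gtf2b, 4 for Polr2a and 1 for Taf8. The Polr2a promoter holds a TATAAA that begins 33 bases before the start and 3 copies of GGGCGG, at 93, 70 and 55 bases before it. The Polr2i promoter holds 2 copies of CCAAT, 1 GGGCGG and, on the other strand, 1 CAAGGNCA that begins 66 bases before the RefSeq start, inside the GENCODE gene. The Taf8 promoter holds GGGCGG on the other strand, and the Gtf2b promoter holds CCAAT, also inside the GENCODE gene. RefSeq gave 83 promoters for 68 of the 79 members. CAAGGNCA was found in 2.41% of these promoters (Polr2i and Taf1b) and in 5.53% of all 32851 promoters in the table. TATAAA was in 14.5% of the member promoters and 12.4% of all, CCAAT in 33.7% and 33.8%, AAGATGG in 6.02% and 4.49%, CCGGAAG in 22.9% and 6.91%, and GGGCGG in 59.0% and 32.7%. A match is a run of letters in this window and says nothing of binding, and the motifs were chosen with results known.

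The level of the machinery was first laid out gene by gene in TPM, the count divided by transcript length and scaled to the same total in each embryo. All 79 members passed the filter on low counts, and their mean levels over all embryos ran from 3.87 TPM for Med12l to 940 TPM for Polr2j. In the polymerase, Polr2j and Polr2c had the highest levels, at 950 ± 333 and 678 ± 202 TPM in knockdown embryos and 930 ± 315 and 642 ± 194 TPM in control embryos (SD, n = 55 and 56). Polr2l, a small subunit shared by all 3 nuclear polymerases, followed at 260 ± 82.7 TPM in knockdown and 236 ± 70.0 TPM in control embryos. At the other end stood Polr2a, the catalytic subunit that carries the C-terminal domain, at 19.4 ± 9.25 TPM in knockdown and 19.8 ± 8.89 TPM in control embryos. Polr2b, the other large subunit, was at 75.9 ± 36.2 TPM in knockdown and 67.3 ± 25.0 TPM in control embryos.

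In Mediator, Med27 and Med28 led: Med27 was at 508 ± 271 TPM in knockdown and 477 ± 223 TPM in control embryos, and Med28 at 429 ± 217 and 399 ± 190 TPM. Med10, a subunit of the middle module, was at 308 ± 77.7 TPM in knockdown and 284 ± 80.2 TPM in control embryos. Med1, the subunit that nuclear receptors contact, was at 160 ± 32.2 TPM in knockdown and 165 ± 41.2 TPM in control embryos. The lowest were Med12l at 3.97 ± 2.98 TPM in knockdown and 3.78 ± 2.52 TPM in control embryos, and Med12, a subunit of the kinase module, at 4.45 ± 3.23 and 4.74 ± 2.73 TPM.

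Among the TAFs, 2 subunits of the Pol I factor were highest, Taf1d at 364 ± 102 TPM in knockdown and 396 ± 121 TPM in control embryos, and Taf1a at 262 ± 124 and 250 ± 118 TPM. Within TFIID itself Taf13, which pairs with Taf11, was at 132 ± 40.3 TPM in knockdown and 146 ± 51.5 TPM in control embryos. Taf1, the largest TAF and a scaffold of the complex, was at 18.8 ± 11.7 TPM in knockdown and 19.0 ± 9.37 TPM in control embryos. Taf15 was at 5.41 ± 3.61 TPM in knockdown and 6.11 ± 3.60 TPM in control embryos. Of the general factors, the 2 subunits of TFIIF led, Gtf2f1 at 245 ± 93.2 TPM in knockdown and 243 ± 75.0 TPM in control embryos and Gtf2f2 at 223 ± 108 and 227 ± 89.2 TPM. The lowest were Gtf2i, which encodes the DNA-binding factor TFII-I, at 20.9 ± 8.85 TPM in knockdown and 20.4 ± 7.43 TPM in control embryos, and Gtf2h4, a TFIIH subunit, at 29.5 ± 14.0 and 29.0 ± 10.2 TPM.

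**Figure D1:**
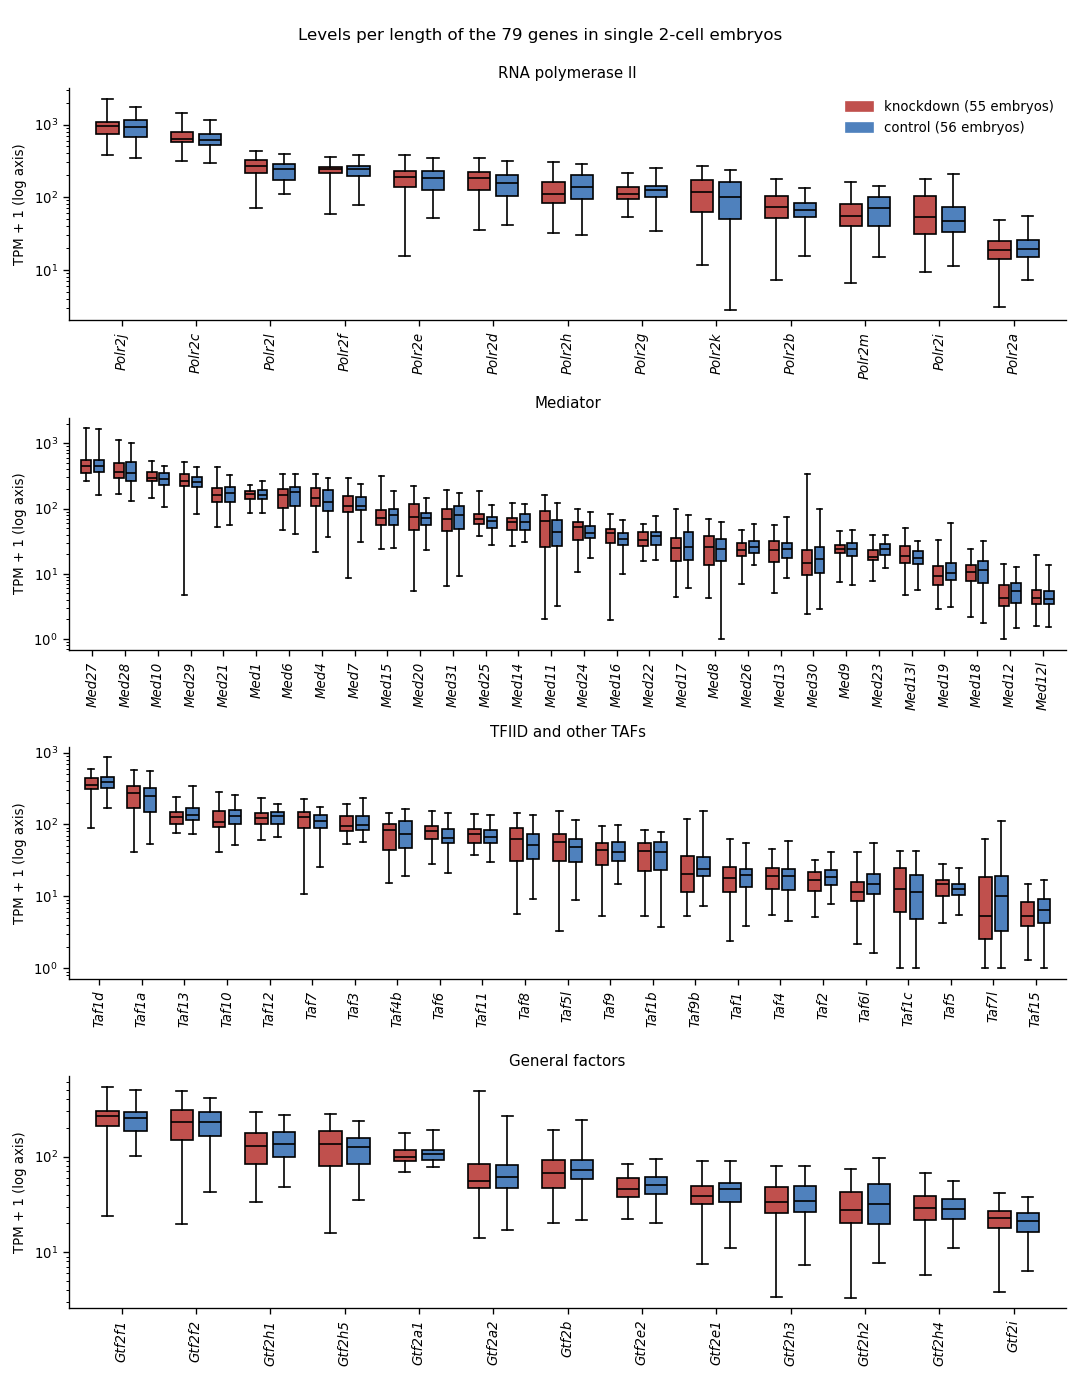
Level per length of the 79 members in single embryos (TPM + 1, log axis), grouped by complex and ordered by mean level, with knockdown boxes left of control boxes. Boxes give the quartiles and the median and whiskers the lowest and highest embryo. Polr2a sits at the bottom of its panel at 19.4 TPM in knockdown and 19.8 TPM in control embryos, and each knockdown box overlaps the control box beside it.

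Several subunits have a paralog in the genome, and in some pairs 1 copy had the higher level in nearly every embryo. Taf4b, which encodes the TAF4 paralog known from germ cells, was at 76.3 ± 35.4 TPM in knockdown and 79.2 ± 38.2 TPM in control embryos, against 19.3 ± 10.3 and 18.5 ± 10.0 TPM for Taf4. Taf4b was above Taf4 in 54 of 55 knockdown and 56 of 56 control embryos. Taf5l was above Taf5 in 50 of 55 knockdown and 54 of 56 control embryos. In other pairs the first copy was higher: Taf7 was above its germ cell paralog Taf7l in all but 1 knockdown and 2 control embryos, and Taf6 above Taf6l in all 111. Taf7l was at 11.0 ± 14.4 TPM in knockdown and 13.1 ± 17.1 TPM in control embryos and had no count in 7 knockdown and 5 control embryos. Taf9 and Taf9b were closer, at 42.4 ± 19.9 and 27.0 ± 24.2 TPM in knockdown embryos and 44.2 ± 21.1 and 31.7 ± 27.8 TPM in control embryos, and Taf9b was the higher of the pair in 14 embryos of each arm. Since 73.8% of the exonic bases of Taf9 are shared with Ak6 on the same strand, its counts depend on how reads were split between the 2 genes.

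For the partners outside the name rule, Tbp, the TATA-binding protein at the core of TFIID, was at 122 ± 57.4 TPM in knockdown and 147 ± 60.6 TPM in control embryos. Tbpl2, the paralog that replaces it in growing mouse oocytes, was at 4.45 ± 5.01 TPM in knockdown and 4.78 ± 4.88 TPM in control embryos, below Tbp in all 111. Cdk8, the kinase of Mediator, was at 69.3 ± 24.0 TPM in knockdown and 77.4 ± 23.1 TPM in control embryos, and its paralog Cdk19 at 1.79 ± 1.18 and 1.96 ± 1.08 TPM. Gtf2a1, the large TFIIA subunit, was above its germ cell paralog Gtf2a1l in every embryo. The pairs Med12 with Med12l and Med13 with Med13l had overlapping levels: Med12l was above Med12 in 26 of 55 knockdown and 20 of 56 control embryos, and Med13l above Med13 in 20 and 16.

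The members of each complex were also summed. The Pol II subunits summed to 2136 ± 340 CPM in knockdown and 1994 ± 336 CPM in control embryos, and Mediator to 2668 ± 411 and 2507 ± 368 CPM. TFIID summed to 1561 ± 161 CPM in knockdown and 1520 ± 156 CPM in control embryos, the other TAFs to 621 ± 217 and 604 ± 191 CPM, and the general factors to 1298 ± 265 and 1296 ± 227 CPM. The ranges of the 2 arms overlapped in each complex, and every difference between the means was smaller than 1 SD. All 79 together made up 0.815 ± 0.107% of the counts in knockdown and 0.794 ± 0.096% in control embryos (SD). By experiment, the Pol II sum was 1976 ± 367, 2325 ± 261 and 2117 ± 316 CPM in knockdown embryos of experiments 1, 2 and 3, and 1811 ± 355, 2215 ± 354 and 2107 ± 216 CPM in control embryos. The Mediator sum was 2615 ± 530, 2729 ± 184 and 2662 ± 442 CPM in knockdown embryos and 2367 ± 411, 2573 ± 304 and 2622 ± 301 CPM in control embryos. TFIID gave 1529 ± 150, 1581 ± 174 and 1569 ± 164 CPM in knockdown embryos and 1429 ± 142, 1525 ± 156 and 1606 ± 121 CPM in control embryos. For Pol II, Mediator and TFIID the lowest of the 3 control groups was experiment 1.

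The design compares knockdown with control embryos, so it can be asked here whether lowering Nr5a2 moved these genes. No member passed the test between knockdown and control embryos, while 1.1% of all 13448 genes tested did. At an unadjusted p under 0.05 there were 6 members (7.59%) in edgeR, 7 (8.86%) in DESeq2 and 5 (6.33%) in limma-voom, against 9.50%, 11.0% and 11.3% of all genes, and none passed after Benjamini-Hochberg adjustment over all genes with any of these tools. The median log2 fold change of the members was 0.03, against 0.02 over all genes, with 50 values above 0 and 29 below. The 95% interval of the change lay within 2-fold in either direction for 78 members and within 1.5-fold for 69, so for most of these genes a larger change than that is outside the interval. The fold changes ran from -0.39 for Taf6l to 0.61 for Med30.

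The members nearest to the threshold came from different complexes. Taf11, whose product pairs with TAF13 in TFIID, had 31.1, 57.8 and 103 CPM in the lowest, median and highest knockdown embryo, against 25.3, 51.9 and 115 CPM in control embryos. The arms overlapped over almost their whole range, and 38 of 55 knockdown embryos lay above the control median of their own experiment. The log2 fold change was 0.22 (SE 0.08, 95% interval 0.07 to 0.38, edgeR adjusted p = 0.187), with 0.21, 0.03 and 0.31 in experiments 1, 2 and 3. Med23, a tail subunit that relays signals from activators, had 17.8, 46.7 and 96.4 CPM in the lowest, median and highest knockdown embryo, against 29.3, 54.7 and 102 CPM in control embryos. Again the arms overlapped, and 14 of 55 knockdown embryos lay above the control median of their experiment. The change was -0.25 on the log2 scale (SE 0.09, edgeR adjusted p = 0.213), with -0.31, -0.25 and -0.20 in the 3 experiments.

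Med30 and Gtf2a2 had the most positive fold changes in Mediator and the general factors, and both moved to just below 0 without the embryos of high oocyte-gene sums. Med30, a subunit of animal Mediator that budding yeast lacks, had 0.91, 8.67 and 241 CPM in the lowest, median and highest knockdown embryo, against 1.22, 9.69 and 53.2 CPM in control embryos. The median of the knockdown embryos was thus below that of the controls although the fold change was 0.61 (SE 0.25, edgeR adjusted p = 0.313), and 22 of 55 knockdown embryos lay above their control median. In the 5 embryos set apart above, Med30 was at 241, 68.4, 60.7 and 53.5 CPM (knockdown) and 52.1 CPM (control). Without those 5 the log2 fold change of Med30 was -0.04 (adjusted p = 0.986). Gtf2a2, the small TFIIA subunit, had 6.89, 29.0 and 312 CPM in the lowest, median and highest knockdown embryo, against 8.07, 32.0 and 139 CPM in control embryos. On the log2 scale it differed by 0.35 (SE 0.18, adjusted p = 0.543) with all embryos and -0.03 (adjusted p = 0.986) without the 5. In the same 5 embryos Taf9b was at 76.7 to 217 CPM, Med28 at 466 to 936 CPM and Polr2c at 806 to 1669 CPM, each above the highest median of an arm (32.4, 217 and 612 CPM). Taf1c was at 1.37 CPM or less in them, against medians of 23.3 CPM over all knockdown and 20.0 CPM over all control embryos. These members are examples. How many members or other genes stood out in the 5 embryos is not given here, so they do not set the machinery apart from other genes.

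Beside Taf11, Med23 and Med30, the members with an unadjusted p under 0.05 were Taf5 at 0.25 (SE 0.11, adjusted p = 0.365), Taf6l at -0.39 (SE 0.18, adjusted p = 0.428) and Med10 at 0.16 (SE 0.07, adjusted p = 0.439), all log2 fold changes from edgeR. The smallest p in each direction belonged in Pol II to Polr2h at -0.27 (SE 0.14, adjusted p = 0.550), Polr2d at 0.20 (SE 0.13, adjusted p = 0.707), and among the lower general factors to Gtf2e1 at -0.15 (SE 0.10, adjusted p = 0.754), by edgeR. Taf6l was the TAF with the smallest p among those lower. Polr2h is shared by the 3 nuclear polymerases, Polr2d encodes the partner of Polr2g in the stalk, and Gtf2e1 is the large TFIIE subunit. Fitted by experiment, no member passed in any: 0.922%, 0% and 0.149% of all genes passed in experiments 1, 2 and 3. At an unadjusted p under 0.05 there were 10, 3 and 1 members (12.7%, 3.80% and 1.27% of them), against 9.31%, 3.84% and 7.15% of all genes. These were 5, 5 and 3 members without the 5 embryos of high oocyte-gene sums, against 8.35%, 4.56% and 7.36% of all genes. The test of whether the response differed between experiments called no member and 0.0149% of all genes (at an unadjusted p under 0.05, 2 members or 2.53%, against 5.65% of all genes).

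**Figure D2:**
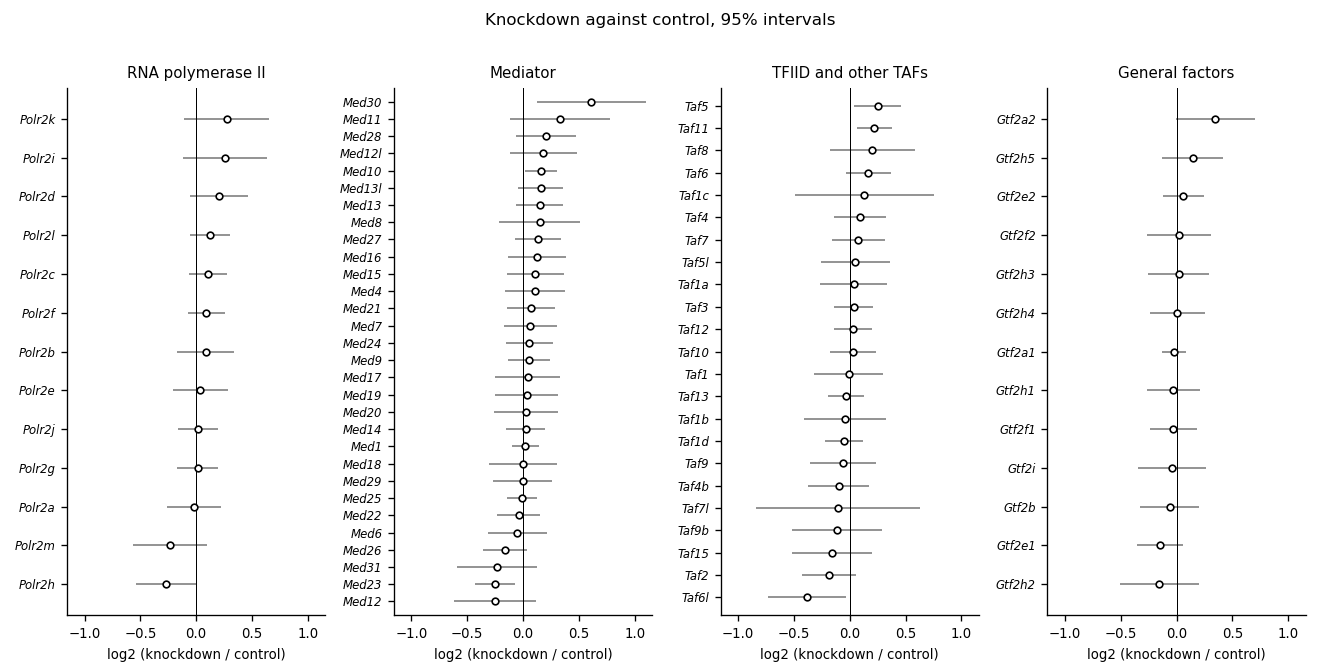
Log2 fold change of each member in knockdown against control embryos, with its 95% interval (horizontal bar), by complex and ordered by fold change. All points are open because no adjusted p was under 0.05, and only the bar of Med30 reaches beyond 1 on the log2 scale.

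The genes that work alongside the members were taken from 7 further lists. In knockdown against control, where 1.1% of all genes passed, none of 13 partners of the preinitiation complex, 3 genes of the Mediator kinase, 12 kinases and phosphatases of the Pol II C-terminal domain, 26 elongation factors, 11 factors of Pol II assembly and 18 subunits particular to Pol I or Pol III passed. Of 16 SAGA partners of the TAFs, 2 passed, both lower. Supt20, a structural subunit of SAGA, fell to 94.0 ± 29.7 TPM in knockdown embryos, against 126 ± 37.5 TPM in control embryos (log2 fold change -0.41, edgeR adjusted p = 0.0064). Tada1 fell to 17.5 ± 9.51 TPM in knockdown embryos, against 26.7 ± 12.4 TPM in control embryos (log2 fold change -0.60, adjusted p = 0.022). Without the 5 embryos their log2 fold changes were -0.36 (adjusted p = 0.0173) and -0.71 (adjusted p = 0.00497). Without experiment 1 they were -0.34 and -0.61 (adjusted p = 0.318 and 0.247), and without experiment 3 -0.41 and -0.53 (0.170 and 0.355), so neither passed without either of these experiments.

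The embryos of 1 arm also differed between experiments. In control embryos 8 of the 79 members (10.1%) passed the test over the 3 experiments, against 10.9% of all genes, so the members moved about as often as other genes. The 8 were Med10, Med19, Med25, Polr2j, Polr2c, Med13, Polr2a and Taf6, with edgeR adjusted p-values of 5.66e-05 to 0.0432. In knockdown embryos, which share no embryo with the controls, 15 members (19.0%) passed, against 18.3% of all genes. Med19, a Mediator subunit next to the middle module, averaged 19.4 ± 10.9, 8.58 ± 3.28 and 11.0 ± 4.91 CPM in knockdown embryos of experiments 1, 2 and 3, and 19.4 ± 12.2, 7.92 ± 4.59 and 10.9 ± 4.10 CPM in control embryos. The level was highest in experiment 1 in both arms, though single embryos of the experiments overlapped. Between controls of experiments 1 and 3 the log2 difference was 0.84 (SE 0.21, edgeR adjusted p = 0.00428), and between knockdown embryos of the same experiments it was 0.81 (SE 0.24, adjusted p = 0.0384). Without the 5 embryos the difference in knockdown embryos was 0.70 (adjusted p = 0.115).

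Experiment 1 minus 3 in controls called 6 members, against 9.14% of all genes. Polr2a was higher in experiment 1 with a log2 difference of 0.61 (SE 0.18, edgeR adjusted p = 0.0158), as was Med19. Med10 (-0.62, adjusted p = 2.68e-05), Polr2j (-0.51, adjusted p = 0.00711), Polr2c (-0.38, adjusted p = 0.0353) and Taf4b (-0.65, adjusted p = 0.0284) were lower in experiment 1. Med10 shares 92.8% of its exonic bases with Gm26819 on the opposite strand, so their reads cannot be told apart. The largest subunit and the heterodimer partners Polr2c and Polr2j thus moved in opposite directions. With the mitochondrial share of each library as a term Polr2c and Taf4b did not pass (adjusted p = 0.101 and 0.0684). Polr2j repeated the direction in knockdown embryos (-0.62, SE 0.16, adjusted p = 0.0112), where 2.24% of all genes passed. Experiment 1 minus 2 in controls called Med19 (1.28), Gtf2a1 (0.39), Med25 (-0.56) and Med26 (-0.67), against 4.9% of all genes, and experiment 2 minus 3 called none, against 1.61% (at an unadjusted p under 0.05, 8 members or 10.1%, against 11.8% of all genes). Without the 5 embryos experiment 1 minus 3 called 10 members (8 lower and 2 higher), against 10.9% of all genes, experiment 1 minus 2 called 8 (5 lower and 3 higher), against 6.04%, and experiment 2 minus 3 called 1, against 2.03%.

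In knockdown embryos experiment 2 minus 3 called 10 members (7 lower and 3 higher), against 14.6% of all genes, which became 5 lower and 0 higher, against 10.8%, without the 5 embryos, and experiment 1 minus 2 called 10, against 14.2%. Polr2a was higher in experiment 2 than 3 by 0.61 (adjusted p = 0.0254), and Med10 had a difference of -0.40 (adjusted p = 0.0176). Gtf2e2, the small TFIIE subunit, was at -0.64 (adjusted p = 0.00267). Between experiments 1 and 2, Med13 of the kinase module was at 0.87 (adjusted p = 6.76e-04) and Med19 at 1.18 (adjusted p = 5.67e-04), while Polr2b was at -0.85 (adjusted p = 0.00643), Med20 at -1.02 (adjusted p = 0.00276), Taf5l at -0.97 (adjusted p = 0.0126) and Taf6 at -0.62 (adjusted p = 0.0157). The test over the 3 experiments called 11 members in knockdown and 11 in control embryos without the 5, against 16.6% and 13.1% of all genes. Of the calls between experiments 2 and 3 in knockdown embryos, those of Gtf2a2, Med30, Taf9b, Med20, Med24 and Polr2a ended without them. The experiment is a label in the sample names, the day and handling behind it are not given, and what sets the experiments apart was not tested.

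**Figure D3:**
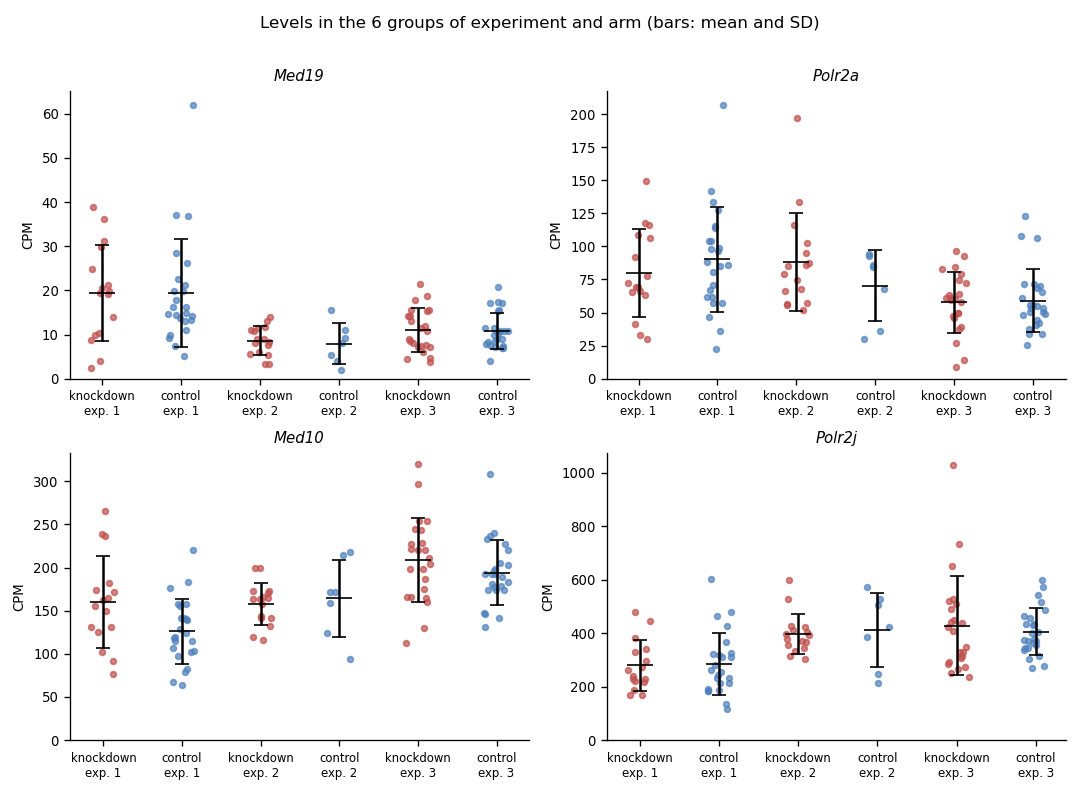
Level (CPM) of Med19, Polr2a, Med10 and Polr2j in each embryo of the 6 groups of experiment and arm, knockdown (red) left of control (blue), with the mean and SD as bars. In control embryos Med19 and Polr2a are higher and Med10 and Polr2j lower in experiment 1 than in experiment 3. In knockdown embryos only Med19 and Polr2j passed that comparison, and within each experiment the 2 arms overlap.

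Embryos of the same group differed more than the arms did. The SD of the log2 level among control embryos of 1 experiment ran from 0.257 for Gtf2a1, 0.294 for Med25 and 0.309 for Med1 to 1.14 for Polr2k, 1.26 for Med11, 1.84 for Taf1c and 1.94 for Taf7l. In Pol II the steadiest were Polr2c (0.373) and Polr2f (0.445), and Polr2i (0.978) came after Polr2k among the most variable. In TFIID Taf11 (0.367) and Taf5 (0.385) were the steadiest, and Taf9b (0.918) came after Taf7l. Taf1c had no count in 3 knockdown and 2 control embryos, Med12 in 1 knockdown embryo, and Med8 and Taf15 each in 1 control embryo. As a description over 111 embryos, with each group's mean taken out, the correlation of log2 levels over the 3081 pairs of members had a median r of 0.157. Within the complexes the median r was 0.256 for Pol II, 0.156 for Mediator, -0.01 for TFIID, 0.538 for the other TAFs and 0.272 for the general factors, and between complexes it was 0.154. The pairs ran from -0.80 for Taf3 with Taf4b to 0.89 for Gtf2f2 with Taf1a, and all of them share each embryo's library and scaling.

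To set this spread against genes typical of the stage, each embryo was given a 2-cell score. It is the mean log2 CPM of 22 such genes, none of them a member. They were Zscan4a, Zscan4c, Zscan4d, Zscan4e, Zscan4f, Tdpoz1, Tdpoz2, Tdpoz3, Tdpoz4, Tdpoz5, Usp17la, Usp17lb, Usp17lc, Usp17ld, Usp17le, Zfp352, Tcstv1, Tcstv3, Spz1, Sp110, Arg2 and Ubtfl1. The score thus rests largely on a few gene families. Tdpoz2, Sp110 and Ubtfl1 had slopes on it of 0.13, 0.03 and 0.0009 that did not pass. The score averaged 5.90 ± 0.92 in knockdown and 6.11 ± 0.86 in control embryos (SD), and ran from 2.81 to 7.71 in knockdown and from 4.15 to 7.99 in control embryos. A slope on the score was fitted within the 6 groups, so it uses differences between embryos of 1 group only. Of the 79 members 44 fell and 7 rose with the score, against 27.8% and 22.9% of all genes (edgeR quasi-likelihood test). The median slope of the members was -0.19, against 0.01 over all genes. Each slope is the log2 change in a member's share of the counts per log2 unit of the score. Score and members come from the same libraries, and neither less RNA of a gene nor more RNA of others, nor fewer cells with it, can be told apart in a share.

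The Pol II subunits split. Polr2a (0.34, SE 0.06, edgeR adjusted p = 2.45e-06) and Polr2g (0.23, SE 0.05, adjusted p = 1.61e-05) rose with the score, and 8 of 13 fell: Polr2i, Polr2k, Polr2h, Polr2m, Polr2d, Polr2e, Polr2b and Polr2f. Polr2i, a small zinc-binding subunit that in yeast supports the fidelity of the enzyme, had the steepest slope of all members at -0.88 (SE 0.08, adjusted p = 2.65e-16). The gene shares 26.8% of its exonic bases with Tbcb on the opposite strand. Polr2i had 2.40, 21.6 and 76.3 CPM in the lowest, median and highest knockdown embryo and 3.26, 17.0 and 83.9 CPM in control embryos. Its 83.9 CPM came from the control embryo with the lowest control score, 4.15, and its 3.26 CPM from the embryo with the highest score, 7.99. The knockdown embryo with the lowest score, 2.81, was off this trend at 13.1 CPM and is 1 of the 5 embryos set apart. Polr2a ran from 8.46 over 68.0 to 197 CPM in knockdown and from 22.2 over 67.6 to 207 CPM in control embryos (lowest, median and highest). The stalk pair split as well, with Polr2g rising and Polr2d falling (-0.39, SE 0.07, adjusted p = 1.22e-06). Of the 5 subunits shared with Pol I and Pol III, Polr2e (-0.37), Polr2f (-0.19), Polr2h (-0.50) and Polr2k (-0.53) fell, and Polr2l had a slope of 0.06 (adjusted p = 0.379). Polr2c and Polr2j, the most abundant, had slopes of -0.06 and 0.07 that did not pass (adjusted p = 0.262 and 0.235).

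In Mediator 16 of 30 subunits fell and none rose. The steepest were head subunits: Med11 at -0.78 (SE 0.12, adjusted p = 8.00e-08), Med8 at -0.61 (SE 0.10, adjusted p = 1.20e-07), Med17 at -0.51 (SE 0.07, adjusted p = 3.66e-09) and Med6 at -0.47 (SE 0.07, adjusted p = 1.86e-08). Med31 (-0.46) and Med4 (-0.39) of the middle module followed. Med14, the backbone that joins the modules, had -0.18 (SE 0.05, adjusted p = 0.00161), and Med1 -0.15 (SE 0.03, adjusted p = 7.36e-05). In the kinase module Med13 fell (-0.26), Med12 had -0.21 (adjusted p = 0.0822) and Med12l 0.13 (adjusted p = 0.172). Med28 (0.12, adjusted p = 0.133), Med26 (0.12, adjusted p = 0.0804) and Med10 (0.08, adjusted p = 0.0925) had positive slopes that did not pass.

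In TFIID 7 of 16 genes fell and 4 rose. Taf8, whose product brings TAF2 and TAF10 into the complex, had -0.78 (SE 0.09, adjusted p = 1.57e-11). It had 5.92, 70.6 and 168 CPM in the lowest, median and highest knockdown embryo and 8.29, 57.8 and 177 CPM in control embryos, a spread that both arms share. Taf2 (-0.41), Taf4 (-0.38), Taf4b (-0.36), Taf1 (-0.30), Taf6 (-0.26) and Taf7 (-0.17) fell with it, so both copies of the TAF4 pair fell. Taf3, which reads trimethylated histone H3 lysine 4, rose with a slope of 0.16 (SE 0.05, adjusted p = 0.00309), as did Taf11 (0.15), Taf12 (0.12) and Taf10 (0.12, adjusted p = 0.0478). Taf12 is the histone-fold partner of Taf4, and the 2 moved in opposite directions. Taf10 shares 45.9% of its exonic bases with Ilk on the opposite strand, and without strand information their reads cannot be separated. Of the other TAFs, Taf1c (-0.80), Taf1b (-0.52) and Taf1a (-0.40) of SL1 and Taf6l (-0.43) and Taf5l (-0.31) of SAGA fell.

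Among the general factors, Gtf2b, the gene of TFIIB that sets the polymerase on the promoter, had the largest positive slope of all called members, 0.44 (SE 0.06, adjusted p = 6.02e-10). Gtf2b had 18.3, 58.7 and 171 CPM in the lowest, median and highest knockdown embryo and 18.1, 64.5 and 229 CPM in control embryos. All 5 TFIIH genes among the members fell: Gtf2h2 at -0.69 (SE 0.09, adjusted p = 4.50e-11), Gtf2h5 at -0.46, Gtf2h3 at -0.45, Gtf2h1 at -0.41 and Gtf2h4 at -0.23. Gtf2f2 (-0.36), Gtf2a2 (-0.25, adjusted p = 0.0257) and Gtf2e2 (-0.16) fell too. Gtf2a1 was flat at -0.01 with the smallest spread of all members, and Gtf2f1 and Gtf2e1 had 0.06 and 0.11 (adjusted p = 0.383 and 0.115), so TFIIA, TFIIE and TFIIF each had 1 subunit that fell and 1 that did not pass.

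**Figure D4:**
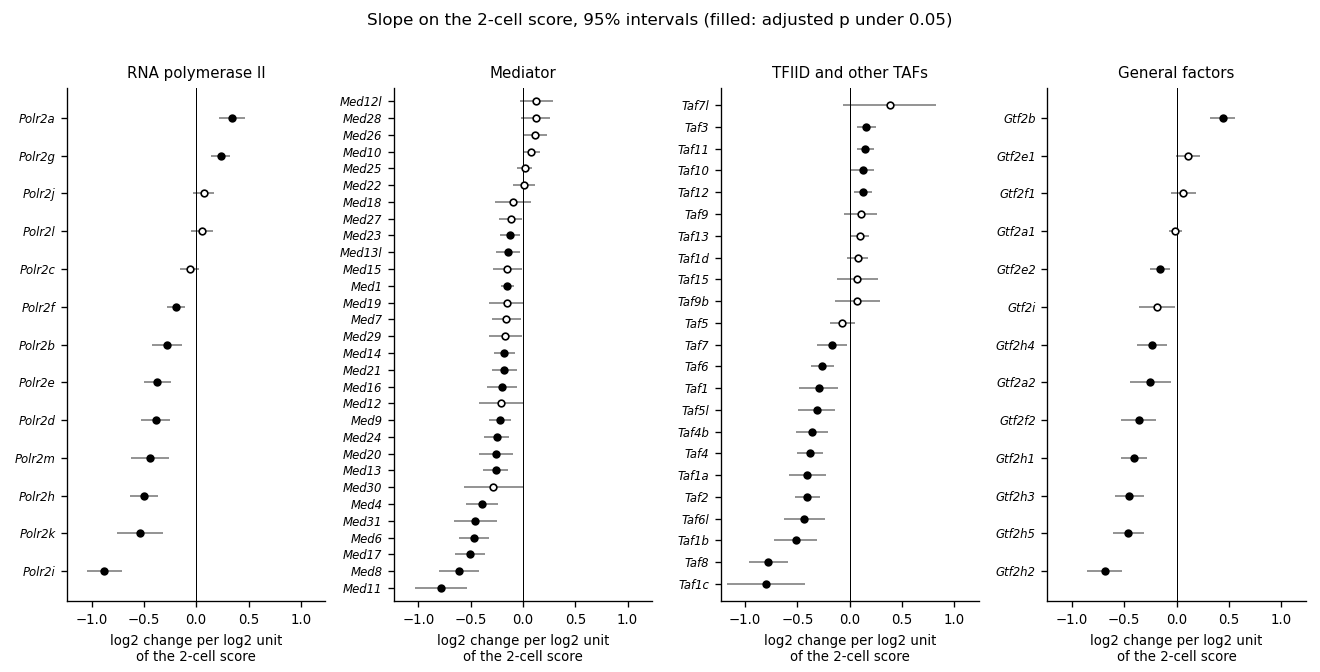
Slope of each member on the 2-cell score (log2 change per log2 unit of the score) with its 95% interval, by complex and ordered by slope. Filled points had an adjusted p under 0.05: 44 lie left of 0 and 7 right of it, and Mediator has no filled point on the right.

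**Figure D5:**
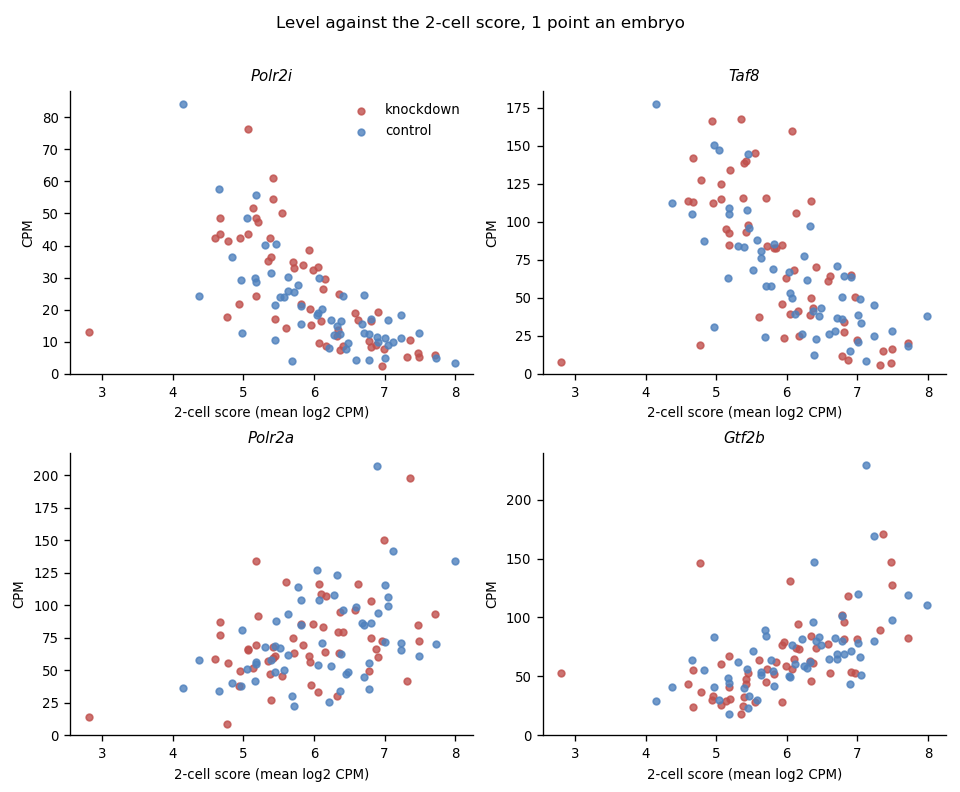
Level (CPM) of Polr2i, Taf8, Polr2a and Gtf2b against the 2-cell score, 1 point an embryo, knockdown in red and control in blue. Polr2i and Taf8 are high in embryos of low score, Polr2a and Gtf2b in embryos of high score, in both arms, and the embryo at 2.81 lies apart at the far left.

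The slopes were also fitted in parts of the data. The 51 members had been called on these same embryos, which favours a shared sign between the parts and the whole. Of the 51 called members, 50 had the same sign in each of the 3 experiments fitted alone, the exception being Gtf2a2 in experiment 2, and 13 passed in each: Gtf2b, Gtf2h1, Gtf2h2, Gtf2h3, Gtf2h5, Med11, Med6, Med8, Polr2e, Polr2h, Polr2i, Taf2 and Taf8. The same counts were not made over all genes, so they have no background here. Control embryos alone gave 41 called members (34 lower, 7 higher), or 51.9%, against 45% of all genes. Knockdown embryos alone gave 34 (30 lower, 4 higher), or 44.2%, against 29.6% of all genes. The test of the difference between the slopes of the arms called no member (edgeR, 1 at an unadjusted p under 0.05) and 0% of all genes. Without the 5 embryos of high oocyte-gene sums 61 members (77.2%) passed, 48 lower and 13 higher, against 66.4% of all genes. Scaling each library on the oocyte genes in place of all genes moved the median slope of all genes by about 0.1, to -0.11. It gave 57 lower and 2 higher members, Gtf2b (0.37) and Polr2g (0.13), so 74.7% passed, against 54.2% of all genes. All genes also tilted lower under this scaling, with 5323 lower and 1968 higher of 13448. Under it the slope of Polr2a was 0.18 (adjusted p = 0.0859), and those of Taf3, Taf10, Taf11 and Taf12 were 0.03 to 0.07 and did not pass. The score was also correlated with 3 measures of the libraries, with the mean of each of the 6 groups taken out and permutation within groups. Over the 111 embryos it had Pearson's r = -0.078 with the log2 library total (permutation p = 0.395, Spearman's rho -0.072, p = 0.445), 0.095 with the mitochondrial share (p = 0.329, rho 0.109, p = 0.257) and 0.041 with the log2 oocyte-gene sum (p = 0.690, rho 0.271, p = 0.00464). After adjustment over these 3 measures the p-values of r were 0.593, 0.593 and 0.690 and those of rho 0.445, 0.385 and 0.0139. Without the 2 embryos farthest from the median of each measure r was -0.035, 0.162 and 0.261.

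The partner genes were also read on the score, beside the same background of 27.8% lower and 22.9% higher. Of the preinitiation partners 6 of 13 fell and none rose, with Tbp at -0.54 (SE 0.08, edgeR adjusted p = 2.69e-09). All 3 genes of the Mediator kinase fell, Ccnc at -0.30, Cdk19 at -0.29 and Cdk8 at -0.21. Of the C-terminal domain kinases and phosphatases 7 of 12 fell and 2 rose. Those that rose were Hexim1 (0.35), which holds the elongation kinase inactive, and Rpap2 (0.24), a phosphatase. Of the elongation factors 13 of 26 fell, with Nelfe at -0.75, and 2 rose, Nelfa (0.27) and Ctr9 (0.16), so subunits of the pausing factor NELF went both ways. Of the Pol II assembly factors 9 of 11 fell, with Ruvbl2 at -0.55, and Uri1 rose (0.12). Of the SAGA partners 11 of 16 fell and none rose, and of the subunits particular to Pol I or Pol III 16 of 18 fell and none rose.

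Because the counts were deposited per transcript, the members were also read at that level. Their 448 transcripts carried 90.9% of the members' counts on protein-coding forms, 3.80% on processed transcripts, 3.56% on retained introns and 1.72% on forms marked for nonsense-mediated decay. In 14 members the leading transcript held under 50% of the counts, among them Med28, Med1, Taf1a, Gtf2h1, Med14 and Taf1d. In Med28, Taf1, Taf10, Taf13 and Taf1c the leading transcript was not annotated as protein coding. For Taf10 it was a retained-intron form of 601 bases with 67.2% of the counts, at 36.6 ± 16.4 CPM in knockdown and 35.1 ± 11.0 CPM in control embryos. For Taf13 it was a processed transcript of 1655 bases with 79.7%, at 93.8 ± 28.8 CPM in knockdown and 99.3 ± 33.8 CPM in control embryos. Reads shared by overlapping forms are split by the quantifier's model, so a share on 1 form is an estimate.

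Of the 197 member transcripts tested, 1 passed between knockdown and control, against 0.309% of the 25255 transcripts tested. It was ENSMUST00000123130.2 of Med25, a processed transcript of 378 bases with 8.96% of the gene's counts. It rose to 7.78 ± 5.25 CPM in knockdown embryos, against 4.83 ± 2.74 CPM in control embryos (log2 fold change 0.68, SE 0.17, edgeR adjusted p = 0.0364). The call ended with library totals in place of TMM, without experiment 1, without experiment 3 and without the 5 embryos. In the authors' deposited table it had a log2 fold change of 0.84 with an adjusted p of 0.282, and none of the 252 member transcripts with an adjusted p in that table was under 0.05.

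Against the score 60 member transcripts fell and 25 rose, against 18.4% and 17.1% of all transcripts. In 3 members forms went both ways. Of Med1, a form of 8024 bases fell (-0.40, edgeR adjusted p = 1.97e-09), a shorter form of 609 bases rose (0.46), and the leading form of 2627 bases had -0.01 (adjusted p = 0.943). Of Polr2f, the leading form of 885 bases fell (-0.24, adjusted p = 6.81e-06) while a retained-intron form of 1958 bases rose (0.49, adjusted p = 2.73e-05). Of Taf1d, the leading form of 1148 bases rose (0.30, adjusted p = 7.32e-05) while a retained-intron form of 4881 bases fell (-0.40, adjusted p = 3.35e-04). The whole Taf1d gene, over all its forms, had a slope of 0.08 (adjusted p = 0.205).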

How the data were processed

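Oligo dT libraries of single embryos were made with SmartSeq2, per the labels, so there are no molecular identifiers and no strand information, and intervals cover the spread between embryos and counting error only. The submitters' processing notes name the pseudoaligner kallisto 0.46.1, the trimmer Trim Galore 0.6.2, DESeq2 1.32.0 under R 3.5.1, and mm10 beside hg19 as builds, with the index release not given in the sources. Estimated counts (also called expected counts) of each transcript, deposited by the authors without normalization, were the main input. For each transcript the authors also deposited a log2 fold change with its adjusted p-value, computed with DESeq2. A further table holds values the authors adjusted for batch, by a method that the sources do not give, and was used as a score in 1 alternative only.

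Counts were summed to genes and rounded. Of the transcripts, 1726 had no gene (median 0.567% of counts) and were left out, and no per-sample column was left unmatched. In experiment 2, control embryo 1 was not analysed here. Rows for B1 and B2 repeats and 1 extra row under the Nr5a2 identifier stayed in the fits but are not counted as genes. No library was a copy of another (highest Pearson's r 0.974 over log2 CPM).

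Tests used edgeR 4.0.16 (R 4.3.3, limma 3.58.1): filterByExpr by arm, TMM, and quasi-likelihood tests over 13448 genes with Benjamini-Hochberg adjustment at 0.05, with experiment and arm as terms (107 residual degrees of freedom, biological coefficient of variation 0.616), or 6 groups with contrasts, or 6 groups with the 2-cell score (mean log2 CPM, prior count 2). CPM use TMM-scaled totals, and TPM were computed here from the counts and GENCODE M21 lengths. SEs come from the fold change and F. Correlations of the score used deviations from the means of the 6 groups and 100000 permutations within groups, two-sided. Code was tested on simulated data. Alternatives were other scalings, filters, terms, tools (DESeq2 1.42.0, limma-voom) and subsets of embryos.

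The members, partner lists and tests were chosen with earlier results of these data known. The genes named were Nr5a2, members that passed a test, in each complex the smallest p in each direction, the highest and lowest levels and spreads, and paralog pairs.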

Additional observations from a re-analysis of the deposited data

Results flagged for a closer look

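The 7 control embryos of experiment 2 are the only group small enough for the test of a single embryo far from the rest, in which the gap of the highest or lowest embryo to its neighbour is set against the range of the group. Of 85 values examined there (the 79 members and 6 sums), 7 had such an embryo, and chance flags about 1 in 20. Gtf2i was at 77.4 CPM in 1 embryo, with the next at 36.3 CPM and a median of 29.7 CPM. Med28 was at 474 CPM in 1 embryo, with the next at 272 CPM and a median of 242 CPM. Taf8 was at 177 CPM in 1 embryo, with the next at 84.0 CPM and a median of 64.7 CPM, in the embryo of the lowest 2-cell score among controls. Taf9b was at 175 CPM in 1 embryo, with the next at 50.7 CPM and a median of 29.6 CPM. At the low end, Med29 was at 55.0 CPM with the next at 225 CPM and a median of 230 CPM, and Taf7 was at 58.3 CPM with the next at 204 CPM and a median of 251 CPM. The sum of all members was 5978 CPM in 1 embryo, with the next at 8141 CPM and a median of 8333 CPM. The values of Med28, Taf9b, Med29, Taf7 and the sum came from the same embryo, whose oocyte-gene sum of 8442 CPM was the highest of the 7. Its library, at 2.18 M counts, was also the smallest of the 7, with the next at 3.48 M. What sets these embryos apart was not tested.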

How the results depend on the processing

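No member passed in knockdown against control under any alternative, whether scaling, filter, further term, tool or left-out experiment, while the count of all genes passing ran from 23 without experiment 1 to 965 with no filter on low counts (42 without experiment 3, 79 with the mitochondrial share as a term, 227 by DESeq2). The block on embryo number left 0 members and 23 genes, and under it the log2 fold change of Gtf2a2 was -0.0255. Same-numbered embryos are not pairs by their labels: the deviations of 46 such pairs had r from -0.364 to 0.376 with 16 over 0.1. Without the 5 embryos of high oocyte-gene sums, chosen after seeing the data, the fold changes of Gtf2a2 and Med30 were -0.0265 and -0.0405. The 1 called transcript was not called (0) with library totals, without experiment 1, without experiment 3 or without those 5 embryos. The count of members varying with the 2-cell score was 43 to 57 with DESeq2 size factors or library totals, no filter, the depth or mitochondrial term, an experiment left out or the 2 embryos of extreme score left out, against 51. In these alternatives 32.3% (no filter) to 61.4% (without the 2 embryos) of all genes passed, against 50.7% in the main fit. Subsets added after seeing the data gave 17 members within experiment 2 alone, which has 7 control embryos (21.5%, against 19.5% of all genes). Within experiment 3 alone there were 31 (39.2%, against 22.8% of all genes). The slope of Gtf2a2 was 0.0696 within experiment 2. Of 918 slopes recomputed for the 51 members under the alternatives, 777 passed again with the same sign, 140 kept the sign without passing and 1 changed sign. These fits reused the embryos on which the 51 were called, or parts of them, which favours agreement. Members with few counts in single embryos, such as Taf7l and Taf1c, had the widest intervals.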
